A study of Capsella orientalis and Capsella grandiflora with 23 samples.

Results

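The paternally expressed genes of the first reciprocal cross pair of Capsella grandiflora numbered 187 among 9385 genes that could be assessed there. A gene belonged to them when it had at least 50 allele-assigned reads over exonic SNPs in each of the 2 directions of the cross and a maternal share of at most 40% in both directions. The maternal share is the number of reads that carry the mother's allele divided by the reads of both alleles. Members made up 1.99% of the genes assessed in pair 1, which in turn came from 16105 genes with an exonic SNP in that pair and 21914 with one in any of the 4 tables. Since these shares chose the members, their values in pair 1 are a description and carry no test.

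The endosperm feeds the growing embryo and forms when a sperm cell fuses with a central cell that holds a doubled maternal genome. A gene that is read equally from every copy therefore gives 2 maternal transcripts for each paternal one, a maternal share of 66.7%, called the dosage here. Paternally expressed imprinted genes depart from the dosage because their maternal copies are silent or only weakly read. In Arabidopsis many such genes carry a Polycomb mark on the maternal copies, and some of them affect seed growth and the failure of seeds from crosses between plants of unequal ploidy.

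The study crossed accessions of C. grandiflora (Cg), an outcrossing species, and of C. orientalis (Co), a self-fertilising relative, in both directions and sequenced endosperm RNA 6 days after hand pollination of emasculated flowers. Of its 23 samples, 14 were endosperm RNA (6 Cg and 8 Co, repeat sequencing runs included), each pooled from 300 to 500 seeds, and the labels give no mutation or agent in any of them. The Cg pairs joined 4 accessions, so Cg pair 2 crossed other plants than pair 1. Co pairs 1 and 2 both joined the same 2 accessions. Whether these 2 Co pairs are separate crosses or repeat runs is not given. Columns are named by parent and direction, with no sample name, so the accession that served as mother in a direction was not identified.

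Cg pair 1 was by far the deepest table, with 8688213 and 8559754 exonic allele counts in directions 1 and 2, against 187220 to 871449 in the other 6 directions. Over all exonic reads the maternal share lay between 61.5% and 66.8% in 7 directions and at 52.0% in direction 1 of Cg pair 2, which stood apart. Results that rest on Cg pair 2 are therefore also given for each direction. The gene intervals carry no names in the tables, so neither the tissue label nor the members could be compared with genes known from Arabidopsis, and members are identified by scaffold, start and end. In bulk endosperm a share is a mix over the cells sampled, and fewer cells of a type cannot be told apart from less RNA per cell.

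In Cg pair 1 the members ranged from fully paternal to just under the limit. Their summed maternal share had a median of 18.4% with quartiles of 9.61% and 25.3%, while the other genes assessed had a median of 66.4%. By the larger of its 2 direction shares, a member was at most 5% maternal in 15 cases, above 5% up to 10% in 22, above 10% up to 20% in 35, above 20% up to 30% in 60 and above 30% up to 40% in 55.

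**Figure D1:**
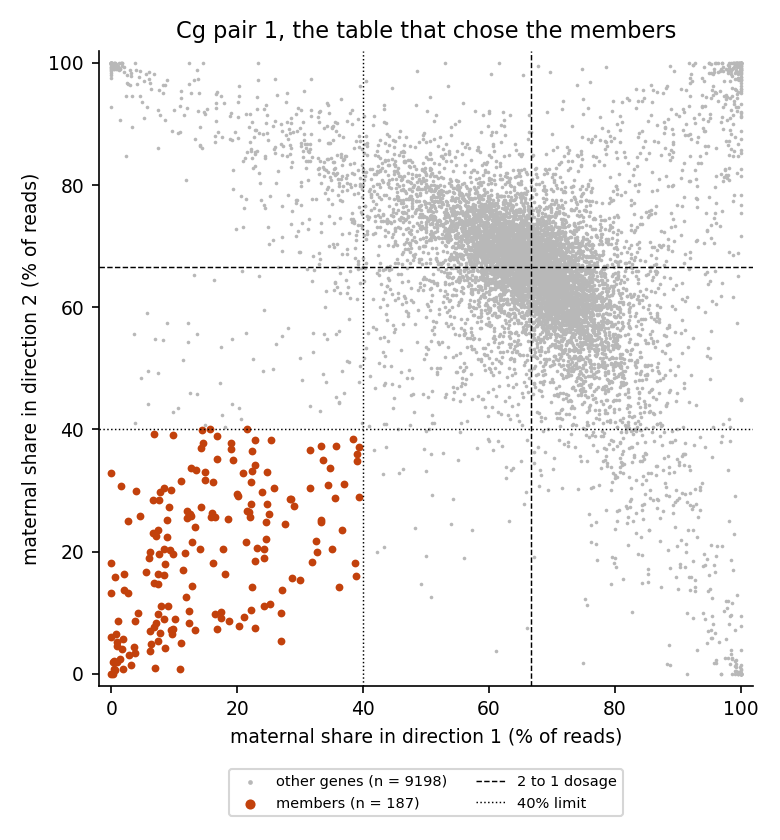
Maternal share in direction 1 (x axis, % of reads) against direction 2 (y axis, % of reads) for every gene assessed in Cg pair 1. The 187 members (orange) fill the lower left corner by construction, and the 9198 other genes (grey) centre on the crossing of the dashed lines at the dosage of 66.7%.

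No maternal read was seen in direction 1 for 5 members and in direction 2 for 2 members. On scaffold 2, the gene at 11464760 to 11466707 had none in either direction. With 0 of 190 and 0 of 81 reads, the depth allowed a maternal share of up to 1.58% and 3.70%. On scaffold 5, the gene at 12760132 to 12762363 had 0.355% of 282 reads (95% Wilson interval 0.0626% to 1.98%) and 0 of 150 reads, which allows up to 2.00%. Another gene, on scaffold 2 at 8550208 to 8552377, had 0.199% of 502 reads (0.0352% to 1.12%) and 1.98% of 101 reads (0.545% to 6.93%). These 3 genes were therefore almost wholly paternal in both directions of the cross.

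The other 2 of the 5 lowest members were also almost wholly paternal. On scaffold 8, the gene at 7633673 to 7635220 had a maternal share of 0.377% of 531 reads (0.103% to 1.36%) and 0.833% of 480 reads (0.325% to 2.12%). For the gene on scaffold 3 at 14210430 to 14213615 the shares were 0.651% of 307 reads (0.179% to 2.34%) and 0.529% of 189 reads (0.0935% to 2.94%). In both genes the intervals of the 2 directions overlapped.

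The members with the most reads were less extreme. The deepest, on scaffold 2 at 7693692 to 7697039, had 8.46% of 15704 reads (8.03% to 8.90%) in direction 1 and 16.2% of 14491 reads (15.6% to 16.8%) in direction 2. The next, on scaffold 4 at 8526546 to 8532043, lay close to the limit in both directions, with 39.1% of 13943 reads (38.3% to 39.9%) and 36.0% of 10437 reads (35.1% to 36.9%). The one on scaffold 4 at 2545639 to 2548130 had 11.9% of 12042 reads (11.3% to 12.4%) and 12.6% of 10503 reads (12% to 13.2%). Only this last gene had overlapping direction intervals among the 3.

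The other 2 of the 5 deepest members lay on scaffold 1 at 16774269 to 16776308, with 9.86% of 5904 reads (9.12% to 10.6%) and 7.37% of 4068 reads (6.61% to 8.22%), and on scaffold 2 at 8105455 to 8106654, with 16.8% of 6008 reads (15.9% to 17.8%) and 35.2% of 2571 reads (33.3% to 37.0%). Across all members the 2 directions differed by a median of 8.23 percentage points, and across the other genes by 10.4. The highest difference was 32.8 points in members and 100 points in the other genes. The rule that chose the members limits their share in both directions, and so limits this difference. The lower median of members therefore cannot be read apart from the choice. Direction 1 had the lower share in 119 members and direction 2 in 66. The same count is not given for the other genes, whose median shares were 66.8% in direction 1 and 67.0% in direction 2. The 95% Wilson intervals of the directions did not overlap in 91 members (48.7%), against 55.3% of all 9385 genes assessed. These intervals are too narrow where several SNPs count the same read. The limit on the shares of members bears on the overlap of their intervals too. The 2 percentages therefore do not show that members differ from other genes in this respect.

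At the limit, the last members inside were genes on scaffold 1 at 11167050 to 11171240 (14.4% and 39.8% in directions 1 and 2), on scaffold 5 at 2615701 to 2618813 (21.6% and 40%) and on scaffold 8 at 2240645 to 2242436 (15.7% and 40%). Just outside were genes on scaffold 3 at 7907562 to 7909389 (18.0% and 40.3%), on scaffold 1 at 7246405 to 7252006 (14.9% and 40.7%) and on scaffold 8 at 373818 to 377389 (39.9% and 41.0%). The values on both sides of the limit were alike, and in all 6 genes direction 2 had the larger share.

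The SNPs of a member mostly had similar shares. Members held 832 exonic SNPs, of which 589 had at least 20 reads in each direction. Of these, 527 were at most 40% maternal in both directions and 582 lay below the dosage in both. Among 132 members with 2 or more such SNPs, the range of summed shares within a gene had a median of 3.74 percentage points and a highest value of 32.4. All such SNPs were at most 40% in both directions in 97 of the 132. Neighbouring SNPs can count the same read and are not independent. The same SNPs were summed to choose the members, so the counts at the limit follow in part from the choice. No range is given for the other genes.

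SNPs of the same gene intervals outside annotated exons gave higher shares. Of the members, 31 had at least 50 reads in each direction over such SNPs, and their median maternal share there was 41.0%, against 55.9% for the 2266 assessed genes with such reads. Only 2 of the 31 (6.45%) were at most 40% in both directions, compared with 0.177% of the 2266 genes. Below the dosage in both directions were 6 of the 31 (19.4%), close to the 16.9% of the 2266 genes. The summed share was at most 63.9% in all 31. The other 25 were therefore below the dosage in one direction and not in the other. In Cg pair 2, 0 of 5 members with at least 20 reads in each direction over such SNPs lay below the dosage in both, against 26.0% of 493 genes.

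In length the members resembled the genes they were chosen from. Their intervals had a median of 2726 bp and ran from 465 to 13287 bp, while all genes assessed had a median of 2537 bp. Intervals under 1 kb made up 3.21% of members (6 genes) and 6.40% of genes assessed, and those over 5 kb made up 9.63% (18 genes) and 10.4%. The longest member, on scaffold 7 at 2683714 to 2697000, had 22.0% of 91 reads (14.7% to 31.5%) and 25.7% of 74 reads (17.1% to 36.7%). The next longest, at 9823 bp on scaffold 1 (6083781 to 6093603), had 8.38% of 3043 reads (7.45% to 9.42%) and 30.4% of 2714 reads (28.7% to 32.2%).

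The shortest members were a 465 bp gene on scaffold 7 (11024878 to 11025342), with 25.2% of 559 reads (21.8% to 29.0%) and 11.4% of 184 reads (7.59% to 16.8%), and a 483 bp gene on scaffold 5 (791209 to 791691), with 39.4% of 3361 reads (37.8% to 41.1%) and 28.9% of 1962 reads (26.9% to 30.9%). The plus strand held 98 members (52.4%, against 50.6% of genes assessed), and 35 rested on 1 exonic SNP (18.7%, against 19.8%). Members were somewhat shallower than the other genes assessed, with a median of 548 reads against 783.

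Members lay on each of scaffolds 1 to 8. Scaffold 4 held the highest proportion, 32 of 1049 genes assessed (3.05%), followed by scaffold 2 with 24 of 942 (2.55%), scaffold 8 with 24 of 1036 (2.32%), scaffold 5 with 19 of 982 (1.93%), scaffold 1 with 28 of 1489 (1.88%) and scaffold 7 with 24 of 1286 (1.87%). Scaffolds 3 and 6 held the lowest, with 19 of 1289 (1.47%) and 17 of 1272 (1.34%). No test was made between scaffolds.

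Members often had another member close by. The nearest other member lay within 20 kb for 52 of the 187 (27.8%), whereas 6.06% of the other genes assessed had a member within that distance. Within 100 kb the proportions were 43.9% (82 members) and 25.8%. The median distance was 160358 bp for members and 242095 bp for the other genes. The 52 members formed 24 sets. The densest stretch of 1 Mb started on scaffold 2 at 7693692 and held 12 members among 85 genes assessed (14.1%).

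**Figure D2:**
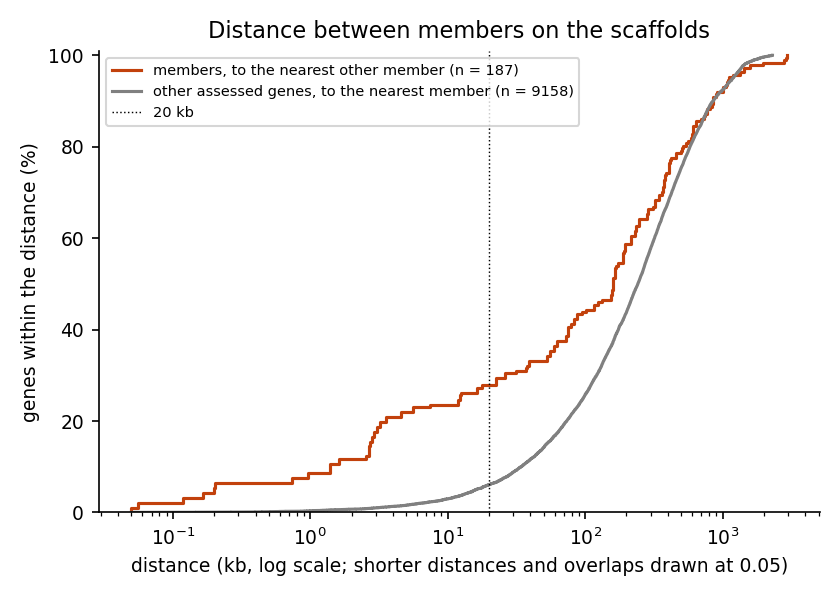
Cumulative percentage of genes (y axis) whose nearest member on the same scaffold lies within a given distance (x axis, kb, log scale), for the 187 members (orange) and 9158 other assessed genes on scaffolds with a member (grey). The curves separate at short range, with 27.8% against 6.06% at the dotted line of 20 kb, and meet at long range.

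The closest set was a pair on scaffold 3 whose intervals overlap by 894 bp on opposite strands. The plus-strand gene at 9793609 to 9796507 had shares of 16.0% and 26.3% in directions 1 and 2, and the minus-strand gene at 9795614 to 9797902 had 14.2% and 27.2%. Of the 4 exonic SNPs of the plus-strand gene, 3 lay in the overlap, and of the 4 of the minus-strand gene, 0 did. The strand used in counting is not given, so reads in an overlap of genes on opposite strands cannot be told apart. Of 6 members whose intervals overlap another gene, 2 have exonic SNPs in the overlap: this plus-strand gene and the gene on scaffold 2 at 9471861 to 9473915, all 4 of whose exonic SNPs lie in it.

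The other close sets lay end to end. On scaffold 7, genes at 10033736 to 10039078 and 10039134 to 10041481 were 55 bp apart and had 7.53% and 28.4%, and 14.9% and 31.7%. On scaffold 5, genes at 6786788 to 6789661 and 6789780 to 6794550 were 118 bp apart, with 28.4% and 28.6%, and 4.64% and 25.9%. Both genes of each set were low by the rule that chose them.

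On scaffold 3, a set of 3 members held a pair 166 bp apart, at 4405222 to 4408509 (22.4% and 14.2%) and 4408676 to 4411263 (16.8% and 7.32%), with the other member at 4388936 to 4392797 (35.0% and 20.4%). On scaffold 5, genes at 2090358 to 2094242 and 2094442 to 2096688 were 199 bp apart and had 8.79% and 25.2%, and 8.47% and 18.0%. In the first of these sets every gene was lower in direction 2, and in the second both genes were lower in direction 1.

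The largest set held 4 plus-strand members over 19043 bp of scaffold 2. In order of position, starting at 8542844, their direction shares were 3.62% and 4.40%, then 2.67% and 24.9%, then 0.199% and 1.98%, then 22.8% and 7.56%. No assessed gene that was not a member lay between them.

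Cg pair 2, a cross of other accessions that took no part in the choice, showed whether the same genes were paternal there. Of the 187 members, 148 had an exonic SNP in pair 2 and 55 had at least 20 reads in each direction. The remaining 132 had no exonic SNP there or too few reads to describe. Of the 55, 29 (52.7%) were at most 40% maternal in both directions, against 1.60% of all 4948 genes with such reads. The summed maternal share had a median of 31.0% over members and 60.6% over all genes.

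Both directions of pair 2 showed the difference, at different levels. In direction 1 the median share was 12% for members and 54.4% for all genes, and 51 members (92.7%) were at most 40%, against 31.1% of all genes. In direction 2 the medians were 37.1% and 67.9%, and 33 members (60.0%) were at most 40%, against 7.01%. More members were thus at most 40% in direction 1, where the median of all genes was also lower, than in direction 2. With direction 1 alone the median of the 58 members with enough reads was 12.1%, and with direction 2 alone that of 84 members was 38.2%.

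Relative to the dosage, 45 of the 55 (81.8%) lay below it in both directions, against 29.2% of all genes, and 40 (72.7%) did so with their whole Wilson interval, against 8.00%. None of the 55 was above the dosage in both directions, against 454 of all 4948 genes. The other 10 were on one side in each, against 2992 of the 4948. Direction 1 was the lower in 45 of the 55 (81.8%), compared with 66.7% of all genes. Depth was alike, with a median of 127 reads for members and 133 for all genes.

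**Figure D3:**
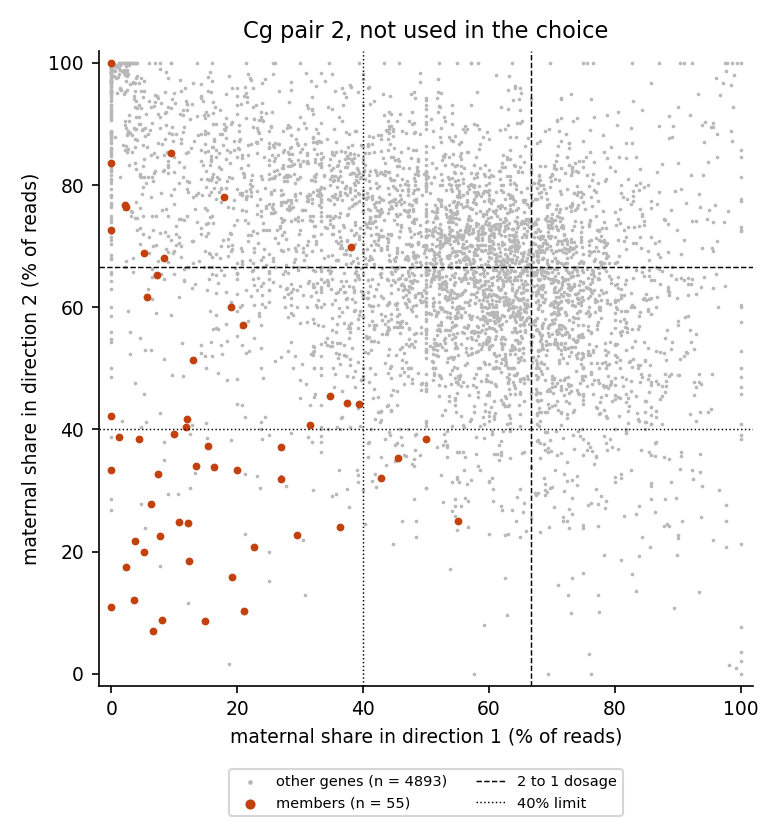
Maternal share in direction 1 (x axis, % of reads) against direction 2 (y axis, % of reads) in Cg pair 2 for genes with at least 20 reads in each direction. Of the 55 members (orange), 29 lie inside the dotted 40% limits on both axes, and most of the rest spread upward in direction 2. The 4893 other genes (grey) spread widely about the dashed dosage lines. Their median was 54.5% in direction 1 (quartiles 35.0% and 67.8%) and 68.0% in direction 2.

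Of the 55 members, 32 shared no exonic SNP position between the pairs, and 18 of these 32 were at most 40% in both directions of pair 2, against 1.60% of all 4948 genes, with a median share of 29.4%. Members that were at most 20% in both directions of pair 1 met the limit in pair 2 in 15 of 25 cases, and the others in 14 of 30. No test was made of that comparison.

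The lowest member of pair 2 was the gene on scaffold 8 at 8166727 to 8168509. Pair 1 gave it 1.84% of 1302 reads (1.24% to 2.73%) and 0.781% of 896 reads (0.379% to 1.60%). In pair 2 it had no maternal read among 116 in direction 1, an upper limit of 2.59%, and 10.8% of 83 reads (5.81% to 19.3%) in direction 2. It was the most paternal of all 4948 genes in pair 2 by summed share.

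Close behind was the gene on scaffold 4 at 1907519 to 1908913, which had 10.1% of 1497 reads (8.66% to 11.7%) and 8.92% of 942 reads (7.26% to 10.9%) in pair 1. In pair 2 it had 6.67% of 105 reads (3.27% to 13.1%) and 6.98% of 172 reads (4.04% to 11.8%), so that all 4 Cg directions lay close together. On scaffold 7, the gene at 11097355 to 11102864, which rested on 28 exonic SNPs in pair 2, had 3.57% of 224 reads (1.82% to 6.89%) and 12.1% of 453 reads (9.45% to 15.5%) there.

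The deepest of the low members was on scaffold 4 at 2870727 to 2872237. It had 27.0% of 1289 reads (24.6% to 29.5%) and 10.0% of 959 reads (8.27% to 12.1%) in pair 1, and 12.4% of 590 reads (9.96% to 15.3%) and 18.4% of 843 reads (15.9% to 21.1%) in pair 2. On scaffold 5, the gene at 830598 to 831303 had 12.4% of 769 reads (10.2% to 14.9%) and 26.0% of 622 reads (22.8% to 29.6%) in pair 1, and 3.83% of 313 reads (2.21% to 6.58%) and 21.8% of 404 reads (18.0% to 26.1%) in pair 2. Both stayed under 30% in all 4 Cg directions.

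The other 5 of the 10 lowest members of pair 2 had between 46 and 103 reads there. On scaffold 3, the gene at 4253514 to 4255393 had 2.27% and 17.4% in the 2 directions of pair 2, and on scaffold 8 the gene at 2939460 to 2942446 had 8.00% and 8.77%. On scaffold 7, the gene at 3283770 to 3290676 had 5.17% and 20.0%, and the 465 bp gene at 11024878 had 14.8% and 8.62%. The shallowest, on scaffold 4 at 1940495 to 1941686, had 0 of 25 reads, which allows up to 12%, and 33.3% of 21 reads (17.2% to 54.6%).

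At the other end, 5 members had the highest summed shares of pair 2, and all 5 were at most 40% in direction 1 and higher in direction 2. The scaffold 2 gene at 8105455 to 8106654, among the deepest of pair 1, had 2.27% of 44 reads (0.402% to 11.8%) and 76.4% of 161 reads (69.3% to 82.3%). The scaffold 4 gene at 1903609 to 1906135 had 9.52% of 21 reads (2.65% to 28.9%) and 85.2% of 27 reads (67.5% to 94.1%), although pair 1 gave it 3.74% of 1203 and 3.41% of 558. The one on scaffold 7 at 6600403 to 6605502 had 17.9% of 28 reads (7.88% to 35.6%) and 78.1% of 64 reads (66.6% to 86.5%).

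The last of these were the scaffold 1 gene at 14937599 to 14940600, with 19.0% of 21 reads (7.67% to 40%) and 60.0% of 70 reads (48.3% to 70.7%), and the scaffold 4 gene at 3061385 to 3063587, with 38.1% of 63 reads (27.1% to 50.4%) and 69.8% of 116 reads (60.9% to 77.4%). In each of these 5, selected for their high summed shares, the direction intervals did not overlap. That held for 26 of the 55 members (47.3%) and for 48.9% of all 4948 genes, so it did not set the members apart. The 5 deepest members of pair 1 were also higher in direction 2 of pair 2 than in direction 1. Besides the gene at 8105455, direction 2 gave 61.7% of 60 reads at 16774269 on scaffold 1 and 24.8% of 109 at 7693692 on scaffold 2. On scaffold 4 it gave 68.9% of 193 reads at 2545639 and 57.1% of 373 at 8526546.

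Sets of neighbours could be followed into pair 2 where both genes had the reads, which held for 4 sets. On scaffold 2 the genes at 7693692 and 7700578 had 10.8% and 24.8%, and 15.4% and 37.3%. On scaffold 4 the genes at 2449299 and 2463848 had 12.1% and 24.7%, and 11.9% and 40.4%, and those at 2853692 and 2870727 had 16.3% and 33.9%, and 12.4% and 18.4%. In these 3 sets both genes were at most 40.4% in both directions and lower in direction 1. The fourth set differed within itself, since the gene at 1903609 had 85.2% in direction 2 and its neighbour at 1907519, 1383 bp away, had 6.98%.

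A test of the deviation from the dosage was made over all 4948 genes of pair 2 with edgeR's quasi-likelihood test. The log2 deviation compares maternal with paternal reads after allowing for the dosage, and negative values are paternal. All 55 members were below 0, with values from -5.96 to -0.73 and a median of -2.54, against a median of -0.38 and 72.5% below 0 over all genes. None of the members and none of the 4948 genes (0%) passed an adjusted p of 0.05, and the smallest adjusted p was 0.999. At an unadjusted p below 0.05, 18 of the 55 were lower, against 0.606% of all genes, and 0 were higher. DESeq2 also called 0 and gave 21 at an unadjusted p below 0.05. With 2 directions and 1 residual degree of freedom per gene, the fit had no term for the accession of an allele, and the median of all genes sat below the dosage by the -0.38 given above.

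Conversely, 50 genes of pair 2 that were not members met the 40% limit in both of its directions with at least 20 reads. Of these, 27 had been assessed in pair 1, where their median share was 63.9%. The 29 members that met the limit in pair 2 were 52.7% of the 55 members with reads there. The nearest assessed genes that were not members had a median of 58.8% in pair 2 over the 136 with reads, and 2 of them were at most 40% in both directions.

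In C. orientalis few members could be followed. An exonic SNP fell in 57 members in Co pair 1 and in 56 in Co pair 2, at least 20 reads in each direction were reached by 14 and 23 members, and 13 members had them in all 4 Co directions. The medians of the summed shares were 51.1% in pair 1, against 64.5% over 1231 genes, and 50.5% in pair 2, against 67.7% over 2138 genes. Different members had reads in the Co and Cg tables, so these medians are not set against those of Cg.

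Few members were at most 40% in both directions in Co. In pair 1, 1 of 14 was at most 40% in both directions, against 0.569% of all genes, and in pair 2 5 of 23 were, against 0.468%. Below the dosage in both directions were 7 of 14 (18.7% of all genes) and 11 of 23 (13.4% of all genes). None was above it in both directions of a pair, a count not given here for all genes. In all 4 directions, 4 of 13 lay below the dosage, against 3.87% of 1213 genes, and 1 was at most 40%, against 0.165%.

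**Figure D4:**
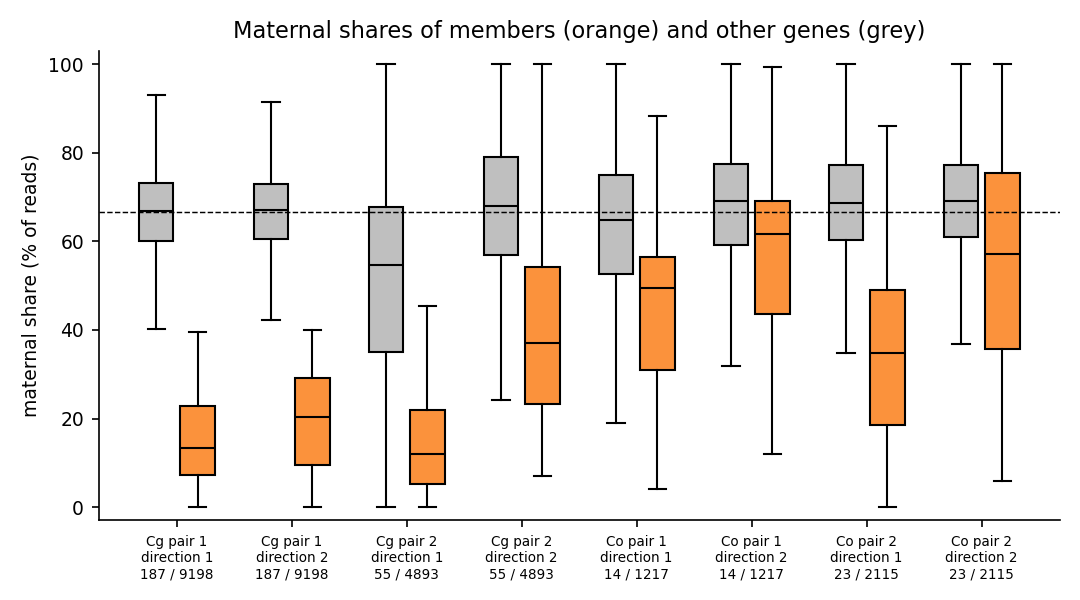
Maternal share (y axis, % of reads) of members (orange) and other genes (grey) in each of the 8 directions. The box spans the quartiles, the line in it is the median, the whiskers reach the furthest value within 1.5 box heights, and the numbers under each direction count members and other genes. The member medians are 13.3% and 20.3% in Cg pair 1, 12% and 37.1% in Cg pair 2, and between 34.7% and 61.7% in Co, where fewer members have reads. The grey medians lie between 64.8% and 69.2%, near the dashed dosage line, except in direction 1 of Cg pair 2.

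The Co test covered 1213 genes in both pairs together. edgeR called 4 of the 13 members paternal at an adjusted p below 0.05, against 4.04% of all genes, and 0 maternal, against 3.79%. At an unadjusted p below 0.05, 8 of the 13 were lower, against 8.08%. The median log2 deviation was -0.88 for members and 0.04 for all genes. Leaving out any of the 4 directions left 0 calls or 1. Such a fit also loses the accession term of that pair, so it differs by more than a direction. Over all genes it called 0 to 15 paternal, against 49 in the full fit.

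One gene, on scaffold 7 at 11097355 to 11102864, was almost fully paternal in both species. It had 4.00% of 25 reads (0.710% to 19.5%) and 0 of 30 reads, which allows up to 10.0%, in Co pair 1. In Co pair 2 it had 0 of 71 reads, which allows up to 4.23%, and 5.88% of 102 reads (2.72% to 12.2%). The edgeR fit of the 4 directions put its log2 deviation at -7.29 ± 0.79 (SE), with an adjusted p of 2.83e-07. Here and below, the SE rests on the difference between the 2 Co pairs and on pooling over genes. It is not a spread over 4 replicates. All 8 directions of the series were at most 12.1% maternal in this gene. The Co values rest on 1 exonic SNP, and the call was lost without direction 1 of Co pair 1 (deviation -7.70, adjusted p = 0.119) or without direction 2 of Co pair 2 (-8.54, adjusted p = 0.548).

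The other 3 called genes were nearer the dosage. On scaffold 1, the gene at 15357529 to 15358898 had 37.1% of 245 reads (31.3% to 43.3%) and 54.2% of 96 reads (44.2% to 63.8%) in Co pair 1, and 46.3% of 281 reads (40.5% to 52.1%) and 40.4% of 421 reads (35.8% to 45.1%) in pair 2. The log2 deviation from edgeR was -1.33 ± 0.22 (SE, fit of 4 directions, adjusted p = 0.000161). The adjusted p was 0.0571 without the replicate block and 0.128 to 0.747 with a direction left out, while the other alternatives kept the call.

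On scaffold 3, the gene at 12541871 to 12545909 had 47.1% of 255 reads (41.0% to 53.2%), 59.6% of 136 (51.2% to 67.4%), 49.2% of 331 (43.9% to 54.6%) and 51.4% of 436 (46.7% to 56.0%) in the 4 Co directions. In Cg pair 1 it had been at 18.5% and 25.3%. Here edgeR gave -0.90 ± 0.22 (SE, fit of 4 directions, adjusted p = 0.00725). All 4 Co directions lay below the dosage.

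The last called gene, on scaffold 4 at 6231489 to 6235749, varied more, with 52.2% of 69 reads (40.6% to 63.5%) and 38.9% of 36 (24.8% to 55.1%) in Co pair 1, and 16.7% of 54 (9.02% to 28.7%) and 50% of 60 (37.7% to 62.3%) in pair 2. The edgeR deviation was -1.70 ± 0.49 (SE, fit of 4 directions, adjusted p = 0.0306). DESeq2 gave adjusted p-values of 0.270 for the scaffold 3 gene and 0.171 for this one, and neither call survived without the replicate block (adjusted p = 0.233 and 0.0921) or with a direction left out (0.329 to 0.770 and 0.305 to 0.848). The scaffold 3 gene also lost its call on the deepest exonic SNP alone (adjusted p = 0.253), and this one at a minimum of 10 reads (adjusted p = 0.0511).

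**Figure D5:**
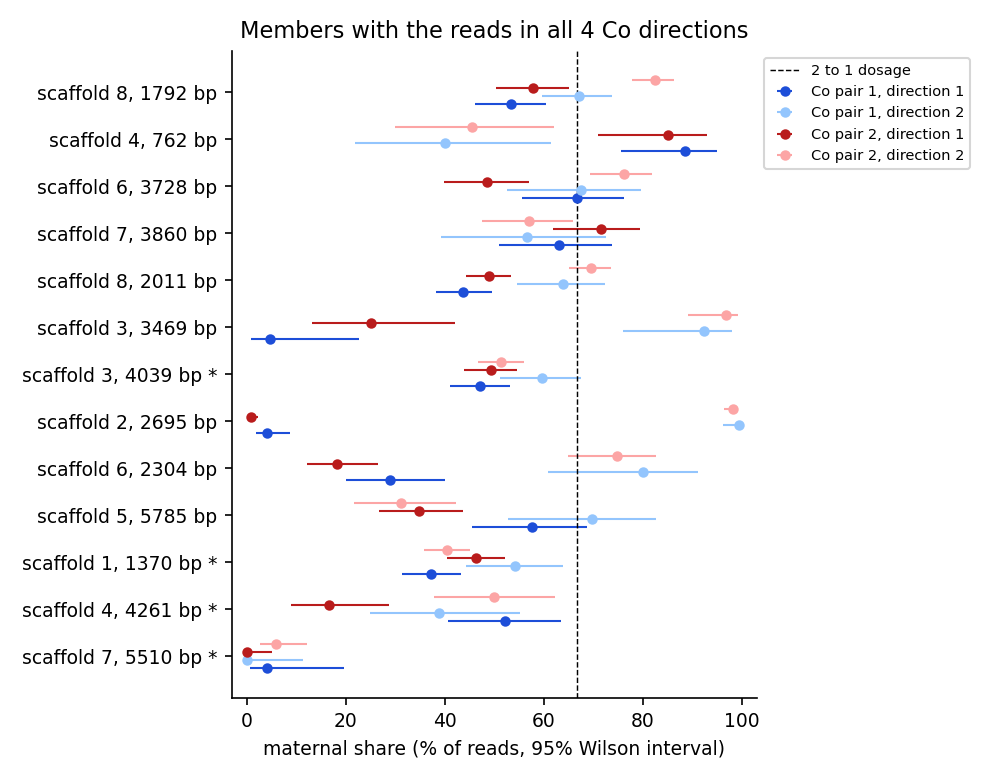
Maternal share (x axis, % of reads) of the 13 members with at least 20 reads in all 4 Co directions, by scaffold and interval length (y axis), with points for the directions, bars for 95% Wilson intervals, a dashed line at the dosage and an asterisk at the 4 genes called paternal. The 5510 bp gene on scaffold 7 lies near 0 in all 4 directions, and 3 genes split into low values in direction 1 and high values in direction 2 of both pairs.

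Among the 13 were 3 genes (23.1%, against 11.5% of the 1213 genes) whose share was under 40% in the same direction of both Co pairs and over 60% in the other, direction 1 being the low one in all 3. The clearest, on scaffold 2 at 10071410 to 10074104, had 4.14% of 145 reads (1.91% to 8.73%) and 99.3% of 140 (96.1% to 99.9%) in Co pair 1, and 0.913% of 438 (0.356% to 2.32%) and 98.1% of 467 (96.4% to 99.0%) in pair 2. Cg pair 2 showed the same alternation, with 0 of 57 reads, which allows up to 5.26%, and 56 of 56. In Cg pair 1 this gene had been paternal in both directions, at 6.20% of 935 reads (4.83% to 7.94%) and 3.75% of 1041 reads (2.75% to 5.08%).

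On scaffold 6, the gene at 13771203 to 13773506 alternated in Co with 28.9% of 76 reads (20.0% to 40%) and 80.0% of 25 (60.9% to 91.1%), then 18.2% of 110 (12.1% to 26.4%) and 74.7% of 91 (64.9% to 82.5%). Its Cg pair 2 values were 0 of 42 reads, which allows up to 7.14%, and 83.6% of 61 (72.4% to 90.8%). On scaffold 3, the gene at 3244934 to 3248402 had 4.76% of 21 (0.846% to 22.7%) and 92.3% of 26 (75.9% to 97.9%), then 25% of 32 (13.3% to 42.1%) and 96.8% of 63 (89.1% to 99.1%). In these 3 genes most Co reads thus came from the mother in one direction and from the father in the other. The directions of a pair swap the parents, so most reads carried the allele of the same accession in both. The cause was not tested. None of the 3 was called, with adjusted p-values of 0.224, 0.267 and 1.00 by edgeR in the order described.

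The 6 other members with reads in all 4 Co directions were not called either, and 5 of them are given here. The scaffold 8 gene at 12030777 to 12032787 had 43.7% and 63.9%, then 48.8% and 69.4%, with an edgeR deviation of -0.59 ± 0.22 (SE, fit of 4 directions, adjusted p = 0.111). The scaffold 8 gene at 2240645 to 2242436 had 53.3% and 67.1%, then 57.8% and 82.4%, and those on scaffold 6 at 13861261 and on scaffold 7 at 14454322 had 66.7%, 67.4%, 48.4% and 76.1%, and 63.1%, 56.7%, 71.4% and 56.9%. The scaffold 5 gene at 8713035 to 8718819 was low in pair 2 alone, at 34.7% and 31.1%, after 57.6% and 69.7% in pair 1 (edgeR deviation -1.17 ± 0.49, SE, fit of 4 directions, adjusted p = 0.200).

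The 5 members at most 40% in both directions of Co pair 2 were that scaffold 5 gene, the scaffold 7 gene at 11097355 and 3 genes with too few reads in pair 1 for the test. The scaffold 7 gene at 3283770 to 3290676 had 19.0% of 21 reads and 7.50% of 40 in Co pair 2, and 21.4% of 14 and 0 of 15 in pair 1, after shares of at most 20.0% in all 4 Cg directions. The scaffold 8 gene at 11874786 to 11876861 had 25% of 32 and 25% of 28, and 27.3% of 22 and 16.7% of 12 in pair 1. The scaffold 5 gene at 6789780 to 6794550 had 39.1% of 23 and 20.0% of 20. At these depths the first 2 of these 3 genes were low in every Co direction that had reads.

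The species were compared in the 5 members with at least 20 reads in all 6 directions outside Cg pair 1, by the interaction of parent and species in edgeR over 577 genes. One was called higher in Co at an adjusted p below 0.05, against 6.24% of all genes, and 0 lower, against 1.91%. It was the 762 bp gene on scaffold 4 at 2853692 to 2854453. It had 7.37% of 1912 reads (6.29% to 8.63%) and 16.3% of 2049 (14.8% to 18.0%) in Cg pair 1, and 16.3% of 43 (8.12% to 30%) and 33.9% of 62 (23.3% to 46.3%) in Cg pair 2.

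In Co the same gene had 88.4% of 43 reads (75.5% to 94.9%) and 40% of 20 (21.9% to 61.3%) in pair 1, and 85.0% of 40 (70.9% to 92.9%) and 45.5% of 33 (29.8% to 62.0%) in pair 2. Direction 1 was high and direction 2 lower in both Co pairs, the reverse of the 3 alternating genes. The difference in log2 deviation, Co minus Cg pair 2, was 2.78 ± 0.84 (SE, n = 4 Co and 2 Cg directions, edgeR adjusted p = 0.0170), and the median difference was 0.29 over the 5 members and 0.36 over all 577 genes. The SE and p of this fit rest on the spread between the Co pairs, pooled over genes. They hold no spread of Cg pair 2, which the fit matches exactly. The call was lost under TMM scaling, where the difference was 2.37 and the adjusted p 0.0790, with DESeq2 (adjusted p 0.406), without the replicate block (adjusted p 0.0885), and without any direction other than direction 2 of Cg pair 2. Over all its alternatives the adjusted p ran from 0.00671 to 0.556.

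For the other members tested, the scaffold 7 gene at 11097355 had a difference of -2.66 ± 1.12 (edgeR adjusted p = 0.140) and the scaffold 6 gene at 13771203 one of 2.77 ± 1.32 (adjusted p = 0.206), each with SE and n = 4 Co and 2 Cg directions. The scaffold 1 gene at 15357529 differed by 0.29 ± 0.51 (adjusted p = 0.841). For the scaffold 2 gene at 10071410, with nearly all reads from a single parent in every direction, the fit gave no usable error. A p that misses the threshold does not show that the species were alike in these genes.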

How the data were processed

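Endosperm RNA of reciprocal crosses within C. grandiflora and C. orientalis was represented by 4 deposited tables, 1 per cross pair. Per the file headers, each row is a SNP with raw counts of maternal and paternal reads in 2 directions and its exon and gene interval. Per the submitters' processing notes, the tools included Trimmomatic, Bismark and Bowtie2, with no version or role. Which program aligned the RNA or called SNPs, the genome build, the counting strand and how repeat runs were joined are points not given in the labels or headers used here. Coordinates are those of the deposited tables. A further 18 numeric columns per table were not used.

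Counts were summed per gene over exonic SNPs, so a read spanning several SNPs counts at each. Intervals are 95% Wilson intervals. A count of 0 is given with the limit of 3 counts of the total. Both cover counting error only. Python 3.11.15 with scipy 1.17.1, edgeR 4.0.16 and DESeq2 1.42.0 in R 4.3.3 were used. Genes with at least 20 reads in each direction were tested by edgeR's quasi-likelihood test, with terms for the library (replicate block), the allele's accession within a pair (not in Cg pair 2 alone) and the parent and with an offset for 2 maternal genomes. Adjusted p-values are Benjamini-Hochberg values over all genes tested. Each fit left 1 residual degree of freedom, so p-values lean on a spread pooled over genes. In the Co and species fits that degree is the difference between the 2 Co pairs, which join the same 2 accessions. The accession terms take up differences between directions, and no spread of Cg pair 2 enters the species fit. The SE is the deviation divided by the square root of F. The block pairs both alleles of 1 library and belongs to the design. Nothing says that samples came from separate plants, so the spread may be technical. The script was tested on simulated data.

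The members, and the rules below, were chosen with earlier results of these data known. Named were the 5 deepest and 5 lowest members (200 reads or more) of Cg pair 1, the 10 lowest and 5 highest of Cg pair 2, those with reads in all 4 Co directions (12 deepest if more), the 2 longest and 2 shortest, the 5 closest sets, 3 genes on each side of the limit and every called member. The 13th member with Co reads, the further sets, the 5 members low in Co pair 2, the scaffold 2 gene with its SNPs in an overlap and the alternating genes were added after their values were seen. Lists of Arabidopsis imprinted genes and of endosperm, seed coat and embryo markers were not used, since the intervals carry no names. Alternatives were other scaling, nulls, read minimums and SNP sets, DESeq2, no replicate block and leaving out directions. In the Co and species fits, leaving out a direction also removes the accession term of its pair.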

Additional observations from a re-analysis of the deposited data

Results flagged for a closer look

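The gene on scaffold 4 at 2853692 to 2854453 stood out because its deviation from the dosage differed between the species by a test of the difference itself. Co minus Cg pair 2 was 2.78 ± 0.84 on the log2 scale (SE, n = 4 Co and 2 Cg directions, edgeR adjusted p = 0.0170). That SE and p hold the spread between the Co pairs and none of Cg pair 2. The call was kept in only 1 of 6 fits with a direction left out and in 2 of 8 other alternatives, with adjusted p-values from 0.00671 to 0.556. The gene was paternal in all 4 Cg directions, from 7.37% to 33.9% maternal, and in Co it was at 88.4% and 85.0% in direction 1 of the pairs and 40% and 45.5% in direction 2. Its Co values rest on 2 exonic SNPs and 20 to 43 reads per direction. None of the 13 members with values in all 4 Co directions had a direction that stood apart from the other 3 by Dixon's criterion.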

How the results depend on the processing

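Of 79 alternative values of the 8 summary results, 46 stayed close and 33 moved. Medians counted as close within a standard deviation, which is a wide range. It was 17.7 points for the Cg pair 2 share, 11.8 points for the Co share and 1661 bp for the length. Leaving out a direction of Cg pair 1 gave 626 to 772 members in place of 187. At most 40% in both directions of Cg pair 2 were 12 of 24 members at 50 reads, 10 of 19 with the deepest SNP alone and 26 of 60 with all SNPs, against 29 of 55. A single direction gave 46 of 84 (54.8%, against 15.2% of all genes) to 54 of 58 (93.1%, against 31.5%). Their median share was 12.1% to 38.2% with a direction left out. In Cg pair 2 no gene, member or not, was called paternal under any alternative. The 0 calls there therefore do not tell members from other genes, and leaving out a direction there allows no test. In Co, the 4 calls became 2 with DESeq2, 1 with no replicate block, 7 at 10 reads, 2 at 50 reads, 8 with no filter, 7 with all SNPs and 0 to 1 without a direction, and the median share of 50.4% became 38.1% to 55.7%, lowest without direction 2 of Co pair 2. The species difference gave 0 calls under TMM, DESeq2, no replicate block, 10 or 50 reads, no filter, all SNPs or the deepest SNP, and 0 to 3 without a direction, against 1. TMM or a null at the median moved all genes of Cg pair 2 to 0.02 or -0.05 and the members to -2.15 or -2.22. Summed exons with a SNP had a median length of 845 bp in members and 866 bp in genes assessed. SNPs with an entry in both directions, an alternative chosen after seeing the data, kept 186 members. The causes were not tested. For lack of an exonic SNP or of depth, 118 members had too few reads in every table but Cg pair 1.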
